A study of Homo sapiens with 4 samples.

Results

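The contractile actin and smooth muscle genes described here are 10 genes fixed by name: ACTA2, TAGLN, CALD1, TPM1, TPM2, CNN1, ACTN1, MYH9, MYL9 and MYLK. All 10 were found by gene name among the 60617 genes listed in every library, and all 10 passed the filter on low counts. They were read in U87MG, an established human glioblastoma cell line, grown as spheres in DMEM/F12 with N2 supplement, 2% B27 and the growth factors EGF and bFGF, each at 20 ng/ml. One group was untreated and the other received abemaciclib, a drug that blocks the cell cycle kinases CDK4 and CDK6. Both groups carry a time of 14 in the labels, which the series design gives as days of treatment, and each had 2 poly-A RNA libraries. Both groups are the same line in the same medium. The dose, and whether untreated spheres received a vehicle, is not given in the sources used here.

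Contractile cells pull by sliding filaments of myosin II along filaments of actin. In smooth muscle and in the stress fibres of other cells the pull is switched on when myosin light chain kinase phosphorylates the regulatory light chain of myosin, while tropomyosin, caldesmon, calponin and transgelin sit along the actin filament and tune it, and alpha-actinin ties filaments together. Several of these genes are textbook targets of serum response factor (SRF) and its cofactors of the MRTF family, which read the pool of unpolymerised actin, and ACTA2, TAGLN and CNN1 are used as markers of smooth muscle cells, myofibroblasts and pericytes. Glioblastoma cells with mesenchymal features can express part of the same set.

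Between 23684260 and 33418075 expected counts were deposited per library, and a depth of 3 counts equals 0.0898 to 0.127 CPM, the unit used throughout for counts brought to a common library size by TMM scaling. The chi-square between replicates was 3.56 per degree of freedom in untreated and 1.95 in treated libraries, more than counting noise gives. The labels do not state separate cultures for the replicates, so every p-value here measures the spread of these libraries only, and that spread may be technical. The share of mitochondrially encoded genes was 4.27% and 4.66% in untreated and 11.8% and 11.7% in treated libraries. Leaving them out changed no call among the 10 genes. As in any bulk sample, fewer cells of a type and less RNA per cell cannot be told apart.

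The 10 genes did not move as a block. After abemaciclib the regulatory light chain MYL9, calponin CNN1 and the kinase MYLK rose more than 2-fold, the heavy chain MYH9, caldesmon CALD1 and, by a small margin, smooth muscle actin ACTA2 also rose, transgelin TAGLN fell about 3-fold, and the tropomyosins TPM1 and TPM2 fell by less (edgeR, quasi-likelihood, p adjusted by Benjamini-Hochberg over 17207 tested genes and below 0.05). Alpha-actinin ACTN1 was not called. That is 6 genes higher, 3 lower and 1 not called. Over all tested genes, 38% were called higher, 39.3% lower and 77.3% in either direction. A call was thus the usual outcome in this comparison, and 9 called of 10 differs little from that background. The median log2 fold change was 0.28 for the 10 genes and -0.01 for all tested genes, and the median size of the change, regardless of sign, was 0.58 against 0.63. Untreated and treated libraries were fully separated in all 10 genes, with both treated libraries above in 6 and below in 4. The same was so for 87.9% of all tested genes, 43.4% with the treated libraries above and 44.5% with them below.

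**Figure D1:**
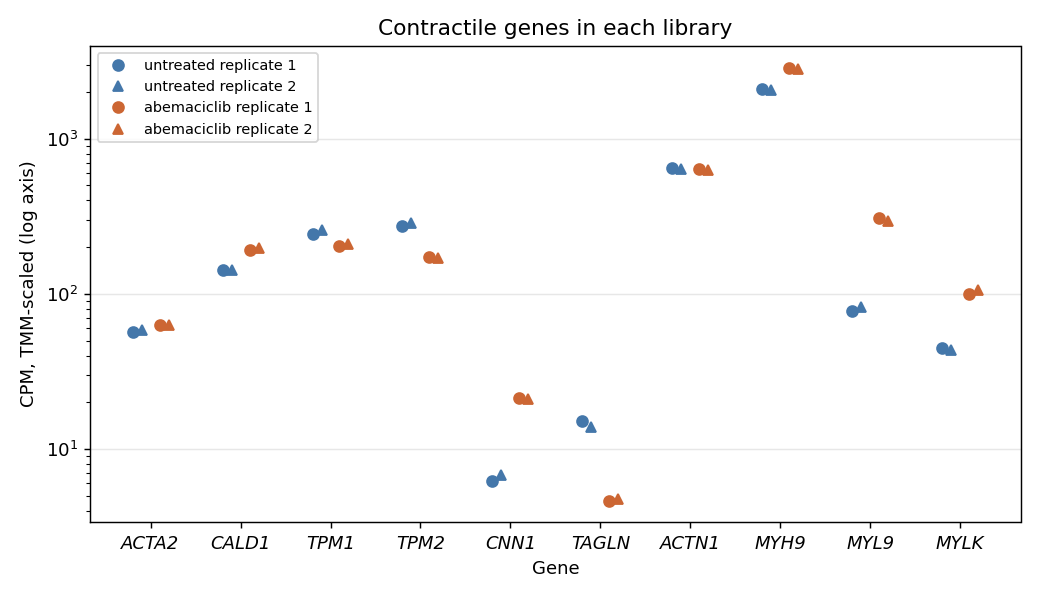
TMM-scaled CPM of the 10 genes in each of the 4 libraries, on a log axis, with untreated libraries in blue, abemaciclib libraries in orange, replicate 1 as circles and replicate 2 as triangles. Replicates lie close together in every gene, and the widest gaps between groups are those of MYL9, CNN1, TAGLN and MYLK.

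The motor and its switch rose in all of their 3 genes. MYL9, the regulatory light chain of smooth muscle and non-muscle myosin II (ENSG00000101335, GRCh38 chromosome 20, 36541484 to 36551447), had 77.0 and 81.8 CPM in the untreated libraries and 309 and 295 CPM in the abemaciclib libraries. Both treated libraries stood far above both untreated ones. Its log2 fold change was 1.92 ± 0.04 (SE), a 3.80-fold rise (edgeR adjusted p = 9.9e-29), and 4.61% of all tested genes rose further.

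MYLK, the kinase that phosphorylates the regulatory light chain (ENSG00000065534, chromosome 3, 123610049 to 123884331), had 44.7 and 43.5 CPM untreated and 100.2 and 106 CPM after the drug. The groups were well apart, and the gap of the treated pair was the wider one. The log2 fold change was 1.23 ± 0.04, a 2.35-fold rise (edgeR adjusted p = 8.83e-22), and 10.3% of tested genes rose further. The same gene also gives rise to telokin, a short protein without the kinase domain that is transcribed from a start inside the gene, and a count per gene does not separate the forms.

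MYH9, the heavy chain of non-muscle myosin IIA (ENSG00000100345, chromosome 22, 36281277 to 36388067), was the most abundant of the 10 genes, with 2102 and 2065 CPM untreated and 2868 and 2829 CPM treated. The treated libraries were higher without overlap, a 1.37-fold rise (log2 fold change 0.45 ± 0.03, edgeR adjusted p = 7.68e-15). Of all tested genes, 29.5% rose further than MYH9.

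ACTA2, smooth muscle alpha-actin (ENSG00000107796, chromosome 10, 88935074 to 88991339), had 57.1 and 58.6 CPM untreated and 62.9 and 63.1 CPM after abemaciclib. The treated libraries were above the untreated ones, but the step was small, 1.09-fold (log2 fold change 0.12 ± 0.04, edgeR adjusted p = 0.0125). The call was lost with DESeq2 (adjusted p = 0.152), in edgeR without untreated replicate 1 (adjusted p = 0.069) and in edgeR without abemaciclib replicate 2 (adjusted p = 0.0504), and it held in the other 7 alternatives. Its deposited value was not whole in any of the 4 libraries, as can happen where reads that match several genes are divided among them.

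The 5 genes whose proteins lie along the actin filament went both ways, with 2 higher and 3 lower. CNN1, calponin 1, which binds actin and inhibits the myosin motor of smooth muscle (ENSG00000130176, chromosome 19, 11538717 to 11550323), had 6.18 and 6.84 CPM untreated and 21.2 and 21.0 CPM treated. Both treated libraries were far above both untreated ones, 3.23-fold in the fit (log2 fold change 1.69 ± 0.10, edgeR adjusted p = 2.16e-16). Its untreated pair rested on 167 and 224 counts and had the widest relative spread of the 10 genes, with a coefficient of variation of 7.16%.

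TAGLN, transgelin or SM22, an actin-bundling protein of the calponin family and an early smooth muscle marker (ENSG00000149591, chromosome 11, 117199321 to 117204782), went the other way. It had 15.2 and 13.8 CPM untreated and 4.65 and 4.75 CPM after the drug. Both treated libraries were lower, 3.07-fold in the fit (log2 fold change -1.62 ± 0.11, edgeR adjusted p = 4.47e-14). A larger fall was seen in 10.1% of all tested genes. With 112 and 161 counts in the treated libraries TAGLN had the fewest counts of the 10 genes.

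CALD1, caldesmon, an actin-binding inhibitor of the myosin motor (ENSG00000122786, chromosome 7, 134744252 to 134970728), had 143 CPM in both untreated libraries and 192 and 196 CPM in the treated ones. This was a 1.36-fold rise (log2 fold change 0.44 ± 0.03, edgeR adjusted p = 1.71e-13). Caldesmon has a long form typical of smooth muscle and a short form found in most cells, which a count per gene does not tell apart.

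The tropomyosins TPM1 and TPM2 form coiled coils along the actin filament and influence which motors and binding proteins reach it. TPM2 (ENSG00000198467, chromosome 9, 35681992 to 35690121) had 275 and 284 CPM untreated and 172 and 170.5 CPM treated, a 1.63-fold fall (log2 fold change -0.71 ± 0.03, edgeR adjusted p = 7.62e-19). TPM1 (ENSG00000140416, chromosome 15, 63042632 to 63071915) had 241 and 258 CPM untreated and 204 and 209 CPM treated, a 1.21-fold fall (log2 fold change -0.27 ± 0.03, edgeR adjusted p = 2.09e-08). Both were lower in both treated libraries, while 24.5% of tested genes fell further than TPM2 and 38.9% further than TPM1.

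ACTN1, the alpha-actinin that crosslinks actin filaments at focal adhesions and along stress fibres (ENSG00000072110, chromosome 14, 68874143 to 68979440), had 649.6 and 641 CPM untreated and 636 and 632 CPM treated. The treated libraries were lower by a step close to the gap between the untreated ones, and the gene was not called (log2 fold change -0.02 ± 0.03, edgeR adjusted p = 0.442). The sign turned to 0.03 ± 0.03 when libraries were scaled by their totals alone, where it was not called either.

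**Figure D2:**
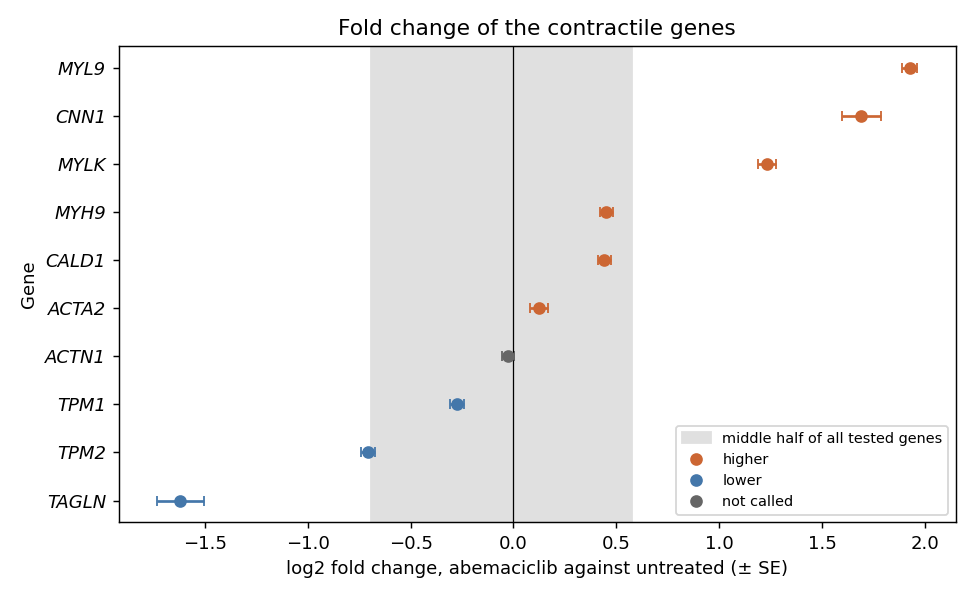
Log2 fold change of each gene, abemaciclib against untreated, with the SE as bars. Orange points were called higher, blue points lower and the grey point (ACTN1) was not called, and the grey band from -0.69 to 0.58 spans the lower to the upper quartile of all tested genes. MYL9, CNN1 and MYLK lie to the right of the band, TAGLN and TPM2 to the left.

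Relative to the other tested genes, 5 of the 10 lay outside the quartiles of all fold changes, which ran from -0.69 to 0.58. Quartiles leave that same share of all tested genes outside by definition. TPM2 (-0.71 ± 0.03) was past the lower edge by less than its SE. A called rise of at least 2-fold was seen in 13.8% of tested genes and in 3 of the 10 (MYL9, CNN1 and MYLK), and a called fall of that size in 17.4% of tested genes and in 1 of the 10 (TAGLN).

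Some of these values carry an uncertainty that replicates do not show. The deposited value was whole in every library for 7 of the 10 genes and not whole in 4 libraries for ACTA2, in 3 for ACTN1 and in 1 for TAGLN. In the GENCODE 29 annotation 6 of the 10 overlap a gene on the opposite strand, ACTA2 with FAS, STAMBPL1 and ACTA2-AS1, TAGLN with PCSK7, MYL9 with DLGAP4-AS1, TPM1 with TPM1-AS and AC079328.2, ACTN1 with BANF1P1, and MYLK with MYLK-AS1, MYLK-AS2 and AC020634.1 among others. ACTN1 also overlaps HMGN1P3 and MYH9 overlaps MIR6819 on their own strand. CALD1, TPM2 and CNN1 overlap no other gene. The library kit marks strand, but whether the counting used it is not given in the sources used here.

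The starts of these genes were searched for the CArG box, the sequence to which SRF binds. The box is CC, then 6 letters that are each A or T, then GG, and it reads alike on both strands. RefSeq starts on GRCh38.p14 matched 8 of the 10 genes, all but TAGLN and MYL9, with 16 starts. In the 250 bases before the start a CArG box was present at 2 of the 16 starts and at 1.16% of the 35116 starts in the table. A looser form that allows 1 of the 6 central letters to be G or C, chosen after the strict matches were seen and which includes them, was present at 4 of the 16 starts and at 7.04% of all. The M-CAT element CATTCC, on either strand, to which TEAD factors bind, was present at 5 of the 16 and at 11.9% of all. It lay before a start of ACTA2, CALD1, ACTN1 and MYH9. Several of the 10 genes are textbook SRF targets, and some supply several starts, with overlapping windows in TPM2. An excess over all starts was therefore not tested.

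The following stretches were chosen to set the strict matches, at a start inside MYLK and at a start of the uncalled ACTN1, beside a gene with a pair of looser matches (ACTA2) and one that rose more than 3-fold and had no match in its window (CNN1). Each is given from 5′ to 3′ on the gene's strand with the strict or looser box in capitals. Only the part outside annotated exons is shown, and for MYLK, whose window lies inside an annotated exon, 30 bases around the box.

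ACTA2, start 38566 bases inside the annotated gene, chr10:88952774-88953023, minus strand: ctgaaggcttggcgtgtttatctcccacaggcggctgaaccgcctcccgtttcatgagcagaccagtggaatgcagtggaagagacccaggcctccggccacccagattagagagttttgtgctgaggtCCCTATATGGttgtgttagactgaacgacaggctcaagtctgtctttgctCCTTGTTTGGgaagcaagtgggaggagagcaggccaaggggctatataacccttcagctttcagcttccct

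ACTN1, start 1874 bases inside the annotated gene, chr14:68977655-68977816, minus strand: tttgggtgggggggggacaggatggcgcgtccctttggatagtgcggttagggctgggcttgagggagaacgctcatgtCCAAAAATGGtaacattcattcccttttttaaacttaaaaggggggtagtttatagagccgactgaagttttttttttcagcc

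CNN1, start 134 bases inside the annotated gene, chr19:11538601-11538716, plus strand: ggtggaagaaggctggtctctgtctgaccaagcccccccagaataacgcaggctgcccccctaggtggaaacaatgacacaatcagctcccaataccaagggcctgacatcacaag

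MYLK, start 263783 bases inside the annotated gene and 10499 bases before its 3′ end, chr3:123620623-123620652, minus strand: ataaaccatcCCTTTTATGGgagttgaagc

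The looser boxes of ACTA2 lay 121 to 112 and 71 to 62 bases before the start, the box of ACTN1 171 to 162 bases and that of MYLK 94 to 85 bases before theirs. The remaining looser match was at CALD1, 26 to 17 bases before a start that lies outside the annotated gene. Matches lay before starts of genes with a small rise (ACTA2, CALD1), a larger rise (MYLK) and no called change (ACTN1). ACTA2, CALD1, TPM2 and ACTN1 have more than 1 listed start, and the counts do not say which start was used. The only listed start of MYLK lies near the gene's 3′ end, so the bases before the start of its long kinase transcript were not searched. A match is a run of letters and not evidence of binding, and the absence of one says only that these letters are not in this window.

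Levels were compared between genes per kilobase (kb) of transcript, using the median length of each gene's protein-coding transcripts in the GENCODE basic set. MYH9 stood first with 499 CPM per kb untreated and 683 treated. TPM2 (236), TPM1 (227) and ACTN1 (212 CPM per kb) followed in the untreated libraries, then CALD1 (53.7), ACTA2 (42.9) and MYL9 (41.3), and at the bottom TAGLN (11.8), MYLK (6.06) and CNN1 (3.99). After abemaciclib MYL9 had 157 CPM per kb and moved from rank 7 to rank 4, and TAGLN, at 3.83, moved from rank 8 to rank 10. Some of this order depended on the length used, a check chosen after seeing the data. In the untreated libraries TPM1 had rank 3 with the median length, rank 4 with the longest coding transcript and rank 6 with the merged exons of the gene, where it lay below MYL9 and ACTA2. CALD1 fell behind ACTA2 with both of these lengths, and MYLK and CNN1 changed places with merged exons. TPM2 kept rank 2 with each of them. MYH9 in first place in both groups and TAGLN in last place after the drug held with each of the 3 lengths.

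Each of the 10 genes, CALD1 aside, has close relatives that encode similar proteins, and these were read in the same libraries. In the regulatory light chain family, MYL12A, at 209 and 215 CPM untreated and 272 CPM in both treated libraries, and MYL12B, at 166 and 158.5 CPM untreated and 202 and 196 CPM treated, rose by 0.36 ± 0.03 and 0.30 ± 0.03 on the log2 scale, against 1.92 ± 0.04 for MYL9. The difference between these genes was not tested. MYL9 supplied 9.62% and 10.2% of the summed CPM per kb of the 3 genes without the drug and 25.2% and 24.6% with it (17.1% and 18.0%, then 39.4% and 38.7%, of their summed CPM without regard to length). The essential light chains rose too, MYL6 by 0.81 ± 0.03 and MYL6B by 0.22 ± 0.04, so all 5 light chain genes were higher.

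MYH9 was nearly the sole myosin II heavy chain in these cells. MYH10, the heavy chain of myosin IIB, had 34 counts over the untreated libraries and 6 over the treated ones, a called fall (log2 fold change -2.41 ± 0.58, edgeR adjusted p = 4.21e-04) that DESeq2 did not call (adjusted p = 0.0524). MYH14 had 16 and 6 counts and smooth muscle myosin MYH11 had 4 and 7 counts, too few to be tested. MYLK likewise stood alone within the MYLK family of light chain kinases, with MYLK2, MYLK3 and MYLK4 at 4 to 23 counts per group. MYLK3, the one of these tested, was not called (0.26 ± 0.50, edgeR adjusted p = 0.641). Kinases outside the MYLK family were not part of that comparison.

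Among the actins, ACTA2 supplied 1.52% to 1.57% of the summed CPM per kb of the 6 genes in each library. The cytoplasmic actins made up nearly all the rest and moved in opposite directions. ACTB had 2224 and 2262 CPM untreated and 3154 and 3106 CPM treated and rose by 0.48 ± 0.03, while ACTG1 had 2881 and 2867 CPM untreated and 2493 and 2501 CPM treated and fell (log2 fold change -0.20 ± 0.03). ACTG1 exceeded ACTB in both untreated libraries and ACTB exceeded ACTG1 in both treated ones, on CPM and on CPM per kb. The enteric smooth muscle actin ACTG2 rose at a low level, from 10.1 and 8.56 to 10.9 and 12.4 CPM (0.33 ± 0.11), a call lost with DESeq2 (adjusted p = 0.136) and in edgeR without untreated replicate 2 (adjusted p = 0.129) or without abemaciclib replicate 2 (adjusted p = 0.122). The striated muscle actins ACTC1, not called (-0.23 ± 0.39), and ACTA1, not tested, had 37 to 45 and 11 to 13 counts per group. Actin genes and their pseudogenes are alike in sequence, so the split of reads among them rests on the authors' estimate.

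The tropomyosins divided as pairs. TPM3 rose from 190.4 and 190.2 to 263 and 257 CPM (0.45 ± 0.03) and TPM4 from 1239 and 1230.3 to 1527 and 1548 CPM (0.32 ± 0.03), while TPM1 and TPM2 fell. TPM1 and TPM2 together went from 42.6% and 44.0% of the summed CPM per kb of the 4 genes to 30.2% in both treated libraries. Without regard to length their share was 26.5% and 27.6% untreated and 17.4% in both treated libraries. The 4 genes summed to 1945 and 1963 CPM untreated and 2167 and 2185 CPM treated.

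Calponins rose and transgelins fell throughout their families. CNN2 went from 167 and 165 to 292 and 280.2 CPM (0.78 ± 0.03) and CNN3 from 81.1 and 75.6 to 93.2 and 91.2 CPM (0.24 ± 0.04), beside the larger rise of CNN1. TAGLN2, the abundant form outside muscle, fell from 753 and 762 to 469.7 and 469 CPM (-0.69 ± 0.03), and TAGLN3 from 9.00 and 10.5 to 7.35 and 7.06 CPM (-0.45 ± 0.12), a call that DESeq2 did not make (adjusted p = 0.071). ACTN4, the other non-muscle alpha-actinin, was not called, like ACTN1 (0.06 ± 0.03, edgeR adjusted p = 0.0589), but was called higher under 4 of 10 alternatives, with a log2 fold change of 0.06 to 0.11 there. The muscle alpha-actinins were low, with ACTN2 at 32 and 90 counts per group (1.49 ± 0.37) and ACTN3 at 189 and 25 counts (-2.85 ± 0.30).

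**Figure D3:**
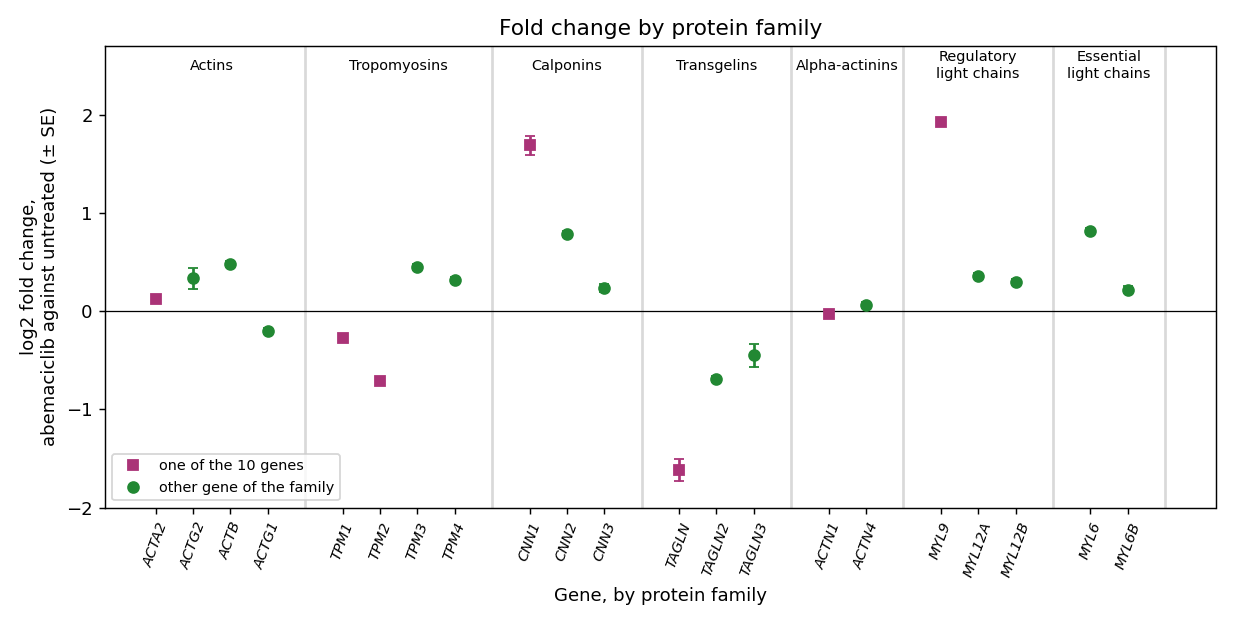
Log2 fold change with its SE for the 10 genes other than MYH9, CALD1 and MYLK (squares) and relatives of theirs (circles), grouped by protein family. The muscle relatives ACTA1, ACTC1, ACTN2 and ACTN3 are not drawn. MYL9, CNN1 and TAGLN lie farther from 0 than their relatives, and TPM1 and TPM2 lie on the other side of 0 from TPM3 and TPM4.

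**Figure D4:**
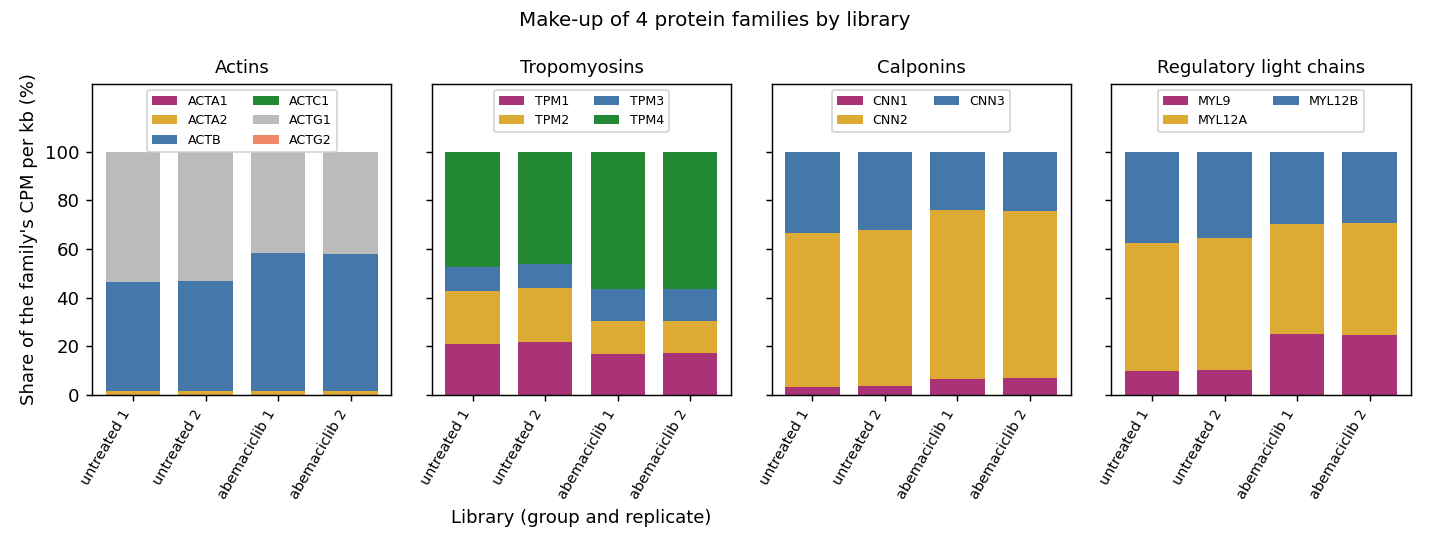
Share of each gene in the summed CPM per kb of its family, one bar per library, for actins, tropomyosins, calponins and regulatory light chains. The share of MYL9 is larger in both treated libraries (25.2% and 24.6%) than in the untreated ones (9.62% and 10.2%), and ACTB and ACTG1 change order.

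Genes that set the phosphorylation of the light chain and build smooth muscle were read from named lists. For the counts in this and the following lists, markers included, the background over all tested genes was 38% higher and 39.3% lower. Of 8 tested genes of the light chain phosphatase and its controls, 4 were higher, 3 lower and 1 (PPP1R12A, the myosin-targeting subunit) not called. The phosphatase inhibitor PPP1R14B (0.47 ± 0.03), PPP1R12C (0.46 ± 0.04) and the kinase PRKG1 (0.46 ± 0.08) rose, and the catalytic subunit PPP1CB fell (-0.45 ± 0.04). PPP1R14C (-0.30 ± 0.10) and PPP1R12B (-0.25 ± 0.09) were called lower in edgeR and not in DESeq2 (adjusted p = 0.155 and 0.211). In edgeR PPP1R14C also lost its call without untreated replicate 1 (-0.18, adjusted p = 0.139) and without abemaciclib replicate 2 (-0.19, adjusted p = 0.162), and PPP1R12B without abemaciclib replicate 1 (-0.22, adjusted p = 0.0736).

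Of 22 other smooth muscle genes, 15 had enough counts to be tested, and of these 9 were higher and 6 lower, with a median log2 fold change of 0.33. The actin-binding NEXN had 1.15 and 1.16 CPM untreated and 7.98 and 8.53 CPM treated (2.84 ± 0.18), LMOD1, which seeds smooth muscle actin filaments, had 1.41 and 1.47 against 6.98 and 6.85 CPM (2.26 ± 0.18), and the small heat shock protein HSPB6 had 21.3 and 22.1 against 101.3 and 100.9 CPM (2.22 ± 0.05). PDLIM3 (-2.26 ± 0.14), AOC3 (-1.70 ± 0.24) and FHL1 (-1.51 ± 0.10) fell. The other 7, among them MYH11 and DES, had too few counts.

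The transcript of SRF itself rose, from 37.7 and 37.9 to 61.2 and 65.1 CPM (log2 fold change 0.74 ± 0.05, edgeR adjusted p = 1.09e-14). Its cofactors MRTFA, at 39.7 CPM in both untreated libraries and 42.8 and 42.4 CPM in the treated ones (0.10 ± 0.05, edgeR adjusted p = 0.0764), and MRTFB (0.09 ± 0.08, edgeR adjusted p = 0.3) were not called. MRTFA was called higher with library totals alone (0.16), and MRTFB without abemaciclib replicate 1 (0.20), while its sign turned without abemaciclib replicate 2 (-0.02). MYOCD, myocardin, the cofactor that drives smooth muscle differentiation, had 0 counts in each of the 4 libraries, below the level that 3 counts give. The list of SRF, its cofactors and the TEAD and YAP factors also holds other regulators, among them the ELK factors, GATA6 and KLF4. Of its 16 tested genes, 3 were higher, 8 lower and 5 not called. FHL2 (0.51 ± 0.04) and YAP1 (0.50 ± 0.03) were up beside SRF. KLF4 (-1.65 ± 0.14), GATA6 (-1.41 ± 0.11) and ELK3 (-0.70 ± 0.04) were down. The list mixes genes of different roles, so its counts do not give the activity of SRF, which was not tested.

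Other target genes of SRF and YAP numbered 27, all tested, of which 17 were higher, 8 lower and 2 not called, with a median of 0.30. NEXN, TES (2.63 ± 0.12) and LIMA1 (0.89 ± 0.03) rose furthest by the rule for named genes, and AXL (-1.64 ± 0.04), FHL1 and LATS2 (-1.23 ± 0.12) fell furthest. Of 33 stress fibre and adhesion genes 16 were higher, 11 lower and 6 not called (median 0.06), with the LIM-domain protein TES, cortactin CTTN (1.21 ± 0.03) and filamin FLNC (1.03 ± 0.03) up and SYNPO (-3.38 ± 0.06), PALLD (-1.15 ± 0.07) and LIMS1 (-1.04 ± 0.04) down. SYNPO, synaptopodin, which binds alpha-actinin and actin bundles, went from 621 and 562 to 59.1 and 55.0 CPM.

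Of 31 genes of actin assembly and turnover 23 were higher, 6 lower and 2 not called (median 0.49). CAP2 (2.53 ± 0.15), TMOD2 (2.40 ± 0.10) and TMOD1 (1.34 ± 0.22) rose and the bundler FSCN1 (-0.77 ± 0.04), the monomer binder TMSB4X (-0.53 ± 0.03) and COTL1 (-0.39 ± 0.03) fell. TGF-beta signals induce ACTA2, TAGLN and CNN1 in many cell types, and of 10 genes of that input 9 were lower and 1, the receptor TGFBR2 (1.09 ± 0.03), higher. The ligand TGFB2 (-1.44 ± 0.08) and the inhibitory SMAD7 (-1.18 ± 0.08) were among those that fell. The lists share some genes.

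**Figure D5:**
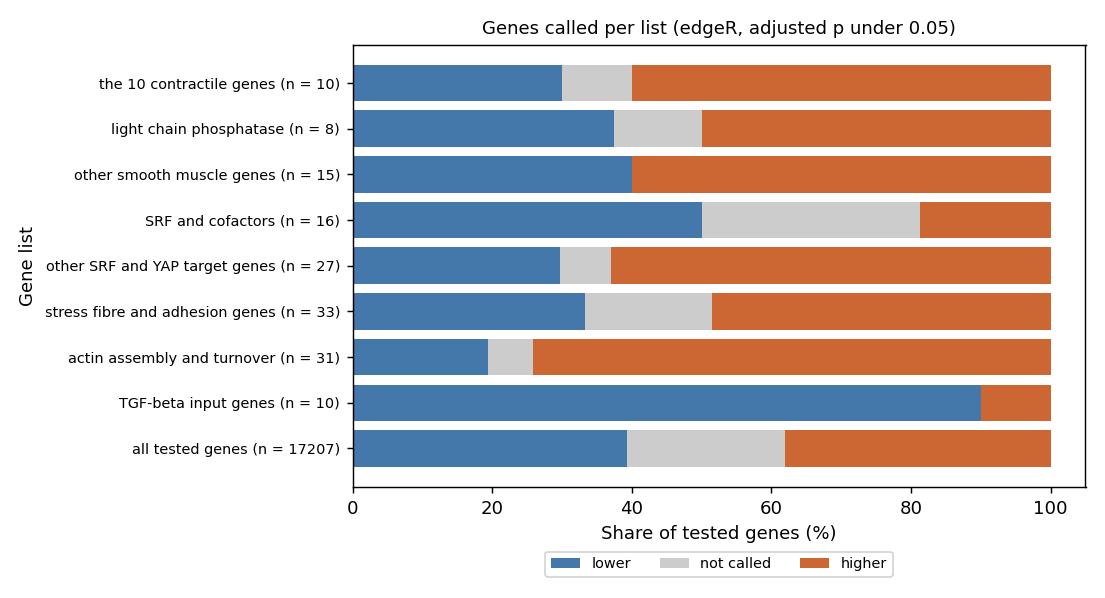
Share of tested genes called lower (blue), not called (grey) and higher (orange) in the 10 contractile genes, in 7 lists of related genes and in all 17207 tested genes. The 10 genes, with 6 higher and 3 lower, stand beside 38% higher and 39.3% lower over all genes, actin assembly genes are mostly higher (23 of 31) and TGF-beta input genes mostly lower (9 of 10).

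Markers of other cell types were read beside these values, and their part in the results was not tested. Of 8 markers of differentiated smooth muscle, MYOCD was at 0 and MYH11, DES and CASQ2 had 2 to 10 counts per group. The other 4 were tested, with LMOD1, SYNPO2 and ACTG2 higher and SMTN lower, and the 8 summed to 328 to 343 CPM untreated and 219 to 225 CPM treated, nearly all of it SMTN. Of 8 pericyte markers 3 were higher, 2 lower and 3 not called, and their sum went from 1568 to 1574 CPM to 669 to 679 CPM. The fall in that sum came from NOTCH3 (-2.08 ± 0.03) and PDGFRB (-2.16 ± 0.03). ABCC9 (1.27 ± 0.09), MCAM (1.26 ± 0.04) and CSPG4 (0.31 ± 0.04) were higher, and RGS5, KCNJ8 and ANPEP were not called. Of 8 fibroblast markers the 7 tested were all lower, with sums of 10287 to 10602 CPM untreated and 4956 to 5078 CPM treated. Striated muscle markers summed to 3.33 to 3.57 CPM over the 4 libraries, with MYOD1 at 0. Within that sum TTN was higher (14 and 115 counts per group, 3.07 ± 0.38) and MYH3 lower (157 and 68 counts, -1.18 ± 0.27). Leukocyte markers summed to 503.5 to 513.5 CPM untreated and 1074 to 1101 CPM treated, nearly all of it CD68. Of the 3 tested, CD68 (1.10 ± 0.03) and PTPRC (7 and 32 counts per group) were higher. CD14 (40 and 18 counts per group, -1.11 ± 0.45) was lower, and DESeq2 called 1 of the 3. Endothelial markers summed to 22.8 and 24.6 CPM untreated and 25.01 and 24.7 CPM treated, a sum in which PECAM1 was lower (584 and 64 counts per group, -3.14 ± 0.18) and ERG (1.65 ± 0.27), KDR (0.83 ± 0.10) and VWF (0.40 ± 0.15) higher. Epithelial markers summed to 17.5 to 18.9 CPM untreated and 9.86 to 9.93 CPM treated, with KRT8 lower (-1.39 ± 0.11) and EPCAM higher (1.17 ± 0.25). The line's own glioma and neural markers moved as well: of 6 tested, 5 were lower and 1 higher, and 4 to 6 were called over the alternatives. The 8 markers of this list summed to 7702 and 7117 CPM untreated and 4894 and 4948 CPM treated, nearly all of it VIM and CD44. CD44 (-1.48 ± 0.03), OLIG2 (-1.03 ± 0.19), NES (-0.50 ± 0.04), VIM (-0.45 ± 0.04) and PROM1 (-1.32 ± 0.47) were lower and SOX2, at 3 and 23 counts per group, was higher. The astrocyte markers GFAP (15 and 14 counts per group) and S100B (4 and 3 counts) were nearly absent from both groups.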

How the data were processed

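Per the file headers, the deposited files give an expected count per gene, an estimate of its reads, and the tools in the submitters' processing notes are STAR 2.7.2b and RSEM 1.3.1, on GRCh38, with no settings. Annotation and strand setting are not given in the sources used here. Per the labels' protocols, libraries were made from Trizol RNA with a stranded poly-A kit. The authors' values carry no scaling and were rounded to whole numbers here. Groups came from the sample titles. Genes were tested with edgeR 4.0.16 (R 4.3.3) by the two-sided quasi-likelihood F test with filterByExpr, TMM scaling, robust estimation and group alone, and Benjamini-Hochberg adjustment over 17207 genes at a threshold of 0.05. The SE is the size of the log2 fold change divided by the square root of F. DESeq2 1.42.0, other scalings, other filters, a replicate block and leaving out each library were alternatives. Lengths and coordinates are those of GENCODE 29 on GRCh38. The test was tried on simulated data. The 10 genes, the lists and the alternatives were chosen with earlier results of these data known. Named genes are the 10, all members of their protein families, the SRF cofactors, and per list at most the 3 that rose and the 3 that fell furthest among those called with at least 1 CPM in the higher group. Some genes and 1 list that this rule takes in are not reported here.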

Additional observations from a re-analysis of the deposited data

How the results depend on the processing

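Over 10 alternatives 8 to 9 of the 10 genes were called (5 to 6 higher, 3 lower), and over all genes 10692 to 13779. Apart from ACTA2 and ACTN1, the genes kept their direction and their call in every alternative. ACTA2 lost its call under 3, and ACTN1 turned to 0.029 with library totals alone. With DESeq2, 2 actins and 1 myosin heavy chain were called, against 4 and 2. Leaving out 1 library gave 2 to 4 actins and 1 to 2 light chain kinases, against 4 and 1. Uncalled genes changed sign when 1 library was left out: ACTC1 (log2 fold change -0.47 to 0.0082), MRTFB (-0.018 to 0.20) and MYLK3 (-0.087 to 0.84). The cause was not tested. Of 640 values of 64 other named genes under the alternatives, 620 kept direction and call. The labels do not say that replicate numbers pair samples, and the difference between replicates 1 and 2 correlated at -0.000191 across genes between the groups. With a replicate block 13093 genes and 9 of the 10 were called. Counts were few for MYH10, MYH11, MYH14 and MYOCD, at 0 to 34 per group.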
